A study of Mus musculus with 6 samples.

Results

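The genes described here are the neurotrophins Bdnf and Ntf3, the receptors Ntrk2, Ntrk3 and Sort1, and 3 further trophic factors, Cntf, Gdnf and Igf1. They were chosen by gene symbol, 8 of the 54532 genes in a table of RNA-seq read counts from mouse spinal cord, and all 8 symbols were found. Of these, 5 passed the filter on low counts (Bdnf, Ntrk2, Ntrk3, Sort1 and Igf1), and Ntf3, Cntf and Gdnf did not. The trained group held 3 cord libraries of C57BL/6J mice that had a spinal cord injury followed by rotarod training, that is, walking on a rotating rod. The untrained group held 3 cord libraries of C57BL/6J mice with the same injury and no training. Mice had been assigned to the groups at random, and the labels place every library at 28 days, counted from training. The labels do not give the age of the mice, the level or type of the injury or the segment of cord taken, and cord of mice without injury was not analysed here. Nothing in them ties a library to its own mouse, so that p-values measure only the spread between these libraries, which may be technical.

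Neurotrophins are secreted proteins made as longer precursors. The mature forms bind Trk receptor tyrosine kinases, BDNF mainly TrkB (the product of Ntrk2) and NT-3 mainly TrkC (Ntrk3), and signal for survival, axon growth and synaptic strength. The precursors bind the p75 receptor (Ngfr) together with sortilin (Sort1), a pairing known for promoting cell death. CNTF, GDNF and IGF-1 act through unrelated receptors (the gp130 cytokine receptors, Ret with a GFRα co-receptor, and the IGF-1 receptor), and each has been studied as a survival factor for motor neurons. In the cord BDNF made in neurons is known to depend on activity, and exercise is known to raise it in several settings.

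Total counts were 15814104 to 26092014 in the trained libraries and 15947347 to 18081949 in the untrained ones. Levels are given as CPM, counts scaled to the library total with edgeR's TMM factors, and 3 counts, taken as the detection floor, equal 0.116 to 0.191 CPM. Markers of cord tissue were high, with a mean over all libraries of 20420 CPM for the myelin gene Mbp, 4535 CPM for the astrocyte gene Gfap and 2189 CPM for the neuronal gene Snap25. In none of the 18 marker lists examined was a marker without counts in all 6 libraries. Trained replicate 1 stood apart in several lists: it had the lowest value of the 6 libraries for 8 of 8 fibroblast and meningeal markers. It was also lowest for 9 of 12 phagocytic microglia markers and for 6 of 8 Schwann cell, 6 of 8 monocyte and macrophage and 6 of 8 reactive astrocyte markers. For 7 of 8 oligodendrocyte markers it was the highest. Neutrophil markers summed to 31.2 to 65.1 CPM in trained and 14.7 to 22.6 CPM in untrained libraries. Of these 7 of 7 were positive in log2 fold change, with a median of 1.46, the most distant from 0 of the 18 lists. The groups did not overlap in 6 of 7, against 16.8% of all genes tested (8.11% higher and 8.69% lower). Red blood cell markers summed to 60.98 to 144 CPM in trained and 36.6 to 67.7 CPM in untrained libraries, with 5 of 5 positive and a median of 0.93. None of these 12 markers passed the test. In bulk tissue, fewer cells of a type and less RNA per cell cannot be told apart.

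None of the 5 genes tested differed between trained and untrained cord in edgeR's quasi-likelihood test at an adjusted p below 0.05 over all genes, where 0.0591% of 16909 genes did, 0.00591% higher and 0.0532% lower. At an unadjusted p below 0.05 the count was also 0 of 5, against 10.0% of all genes (4.47% higher and 5.55% lower), and DESeq2 and limma-voom called none of the genes either. The trained and untrained CPM ranges did not overlap in 1 of the 5, Ntrk3, which was lower in trained cord, against 16.8% of all genes tested (8.11% higher and 8.69% lower). The median log2 fold change (trained over untrained) of the 5 was -0.04, against -0.01 over all genes tested.

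**Figure D1:**
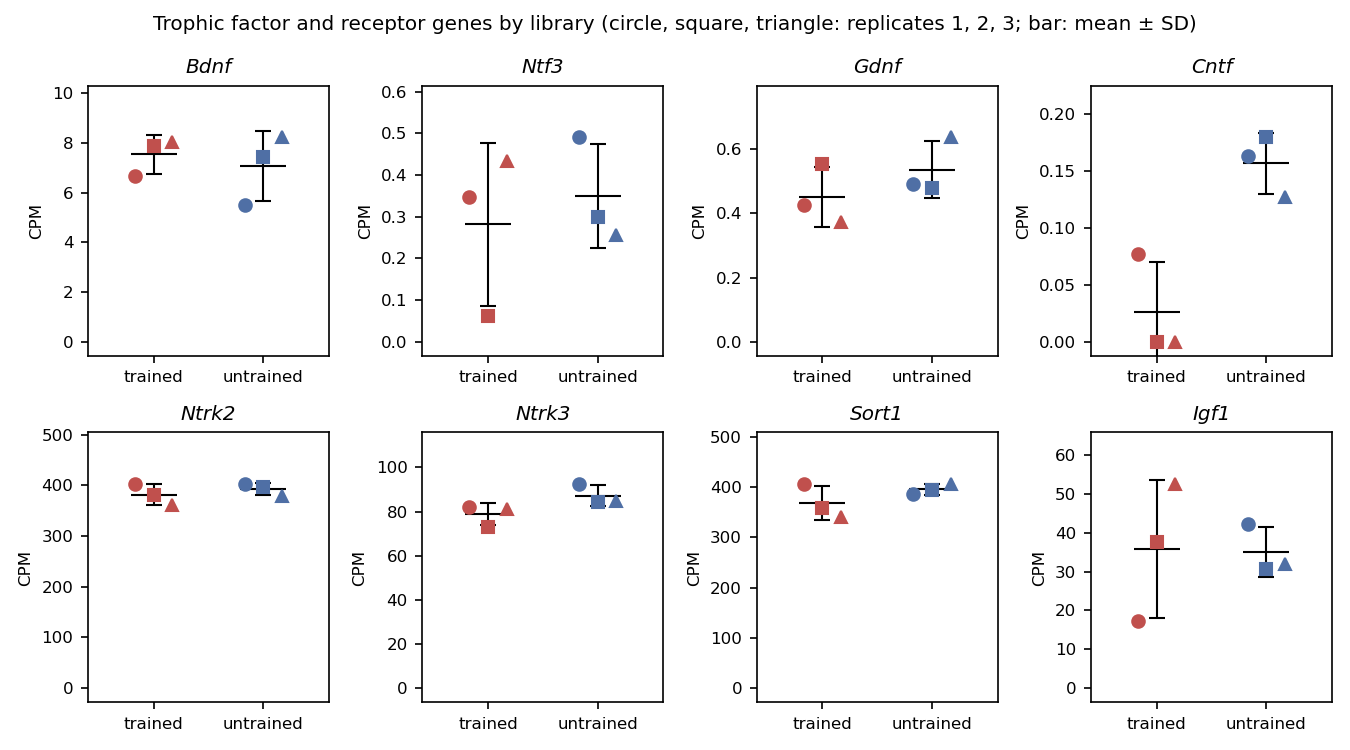
CPM of each of the 8 genes in the 3 trained and 3 untrained libraries, on a linear axis that starts at 0 in each panel. Points are libraries, the horizontal bar is the group mean and the whiskers are 1 SD. The groups overlap in every panel except those of Ntrk3 and Cntf, and the trained Igf1 values spread from 17.2 to 52.7 CPM.

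Levels can be compared between genes only per length, here as CPM per kb of the gene's summed exon length. On that scale Sort1 was highest, with a mean over the 6 libraries of 50.4 CPM per kb, at percentile 94.5 of all genes tested. Ntrk2 followed with 20.1 CPM per kb (percentile 85.2), then Igf1 with 3.58 CPM per kb (percentile 44.5), Ntrk3 with 2.75 CPM per kb (percentile 38.3) and Bdnf with 1.17 CPM per kb (percentile 21.9). Ntf3, Gdnf and Cntf lay at 0.184, 0.134 and 0.0852 CPM per kb. The ranges over the 6 libraries separated Sort1 from Ntrk2, Ntrk2 from Igf1, Ntrk3 from Bdnf and Bdnf from the 3 low genes. They did not separate Igf1 (1.74 to 5.32 CPM per kb) from Ntrk3 (2.42 to 3.07), nor Ntf3, Gdnf and Cntf from each other. Per length, Ntrk2 was 6.97 to 8.13 times Ntrk3 in trained libraries and 6.80 to 7.35 times in untrained ones. The exon length sums all isoforms, 30170 bp for Ntrk3 and 19292 bp for Ntrk2, and both genes are known to make full-length and truncated receptors that a gene count does not separate.

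**Figure D2:**
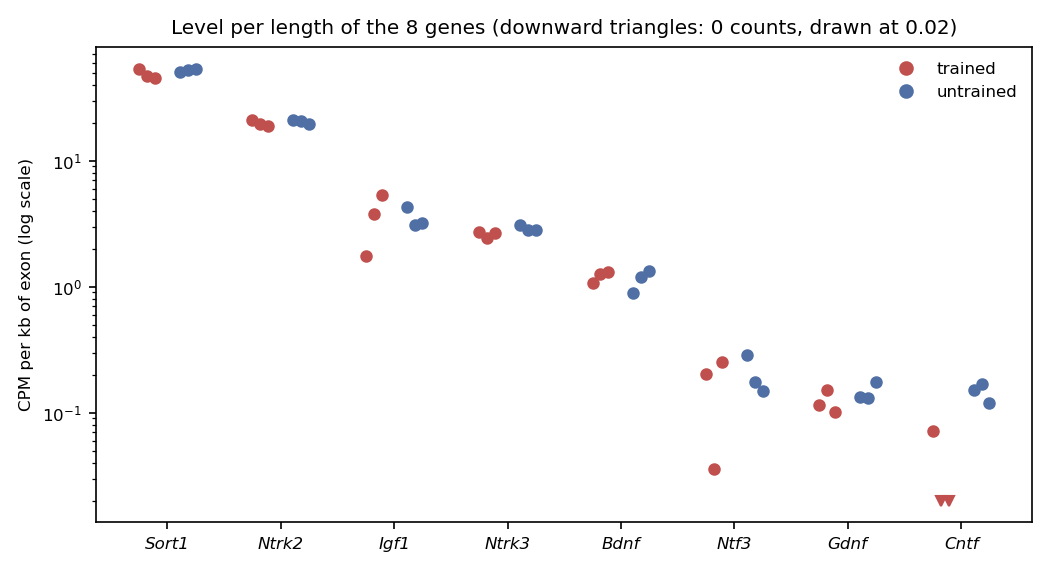
Level per length of the 8 genes, as CPM per kb of exon on a log axis, in trained and untrained libraries. Sort1 and Ntrk2 lie above the others, and 2 trained libraries without a Cntf count are drawn as triangles at the bottom.

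Bdnf encodes brain-derived neurotrophic factor. It spans bases 109674700 to 109727007 of the plus strand of chromosome 2 (coordinates as the table gives them, which match GRCm38), and the GENCODE M21 annotation gives it 11 transcripts from 9 start positions. Its CPM values were 6.65, 7.89 and 8.05 in trained replicates 1, 2 and 3, against 5.51, 7.44 and 8.23 in untrained replicates 1, 2 and 3. The lowest value was that of untrained replicate 1 and the highest that of untrained replicate 3, so the trained values lay inside the untrained range. Bdnf had a mean of 7.53 ± 0.768 CPM in the trained group and 7.06 ± 1.40 CPM in the untrained group (SD, n = 3 each), a log2 fold change of 0.09 ± 0.18 (SE) with an adjusted p of 0.905. The 95% confidence interval of that log2 fold change ran from -0.30 to 0.49. The libraries held 101 to 172 Bdnf counts, for which counting error alone gives a coefficient of variation of 8.43% in trained and 9.26% in untrained cord. The observed coefficients were 10.2% and 19.8%. Without untrained replicate 1 the log2 fold change was -0.05. Of the exon bases of Bdnf, 14.4% are shared with a gene annotated on the opposite strand, Gm45346, and the use of strand in counting is not given in the sources used here.

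Bdnf transcription is known to start at several promoters, and one of these is known for a calcium-responsive site bound by CREB. The upstream sequences are shown because the regulators of these promoters are described below and because a gene count cannot say which promoter was used. RefSeq sequences (GRCm38.p6) were found for 6 of the 8 genes, in 14 windows of 300 bases from 250 before to 50 after a start (Ntrk3 and Sort1 are without one). Both strands were searched for the CRE, TGACGTCA, and for its core, ACGTCA, which the longer motif contains. The full CRE was in none of the 14 windows and in 1.79% of all 32851 windows, and the core was in 2 of the 14, 1 of the 7 of Bdnf and 1 of the 2 of Gdnf, and in 7.51% of all windows. The 250 bases before these starts follow, 5′ to 3′ on the plus strand, with the core in capitals, at chr2:109692186-109692435 for Bdnf and chr15:7809798-7810047 for Gdnf.
Bdnf: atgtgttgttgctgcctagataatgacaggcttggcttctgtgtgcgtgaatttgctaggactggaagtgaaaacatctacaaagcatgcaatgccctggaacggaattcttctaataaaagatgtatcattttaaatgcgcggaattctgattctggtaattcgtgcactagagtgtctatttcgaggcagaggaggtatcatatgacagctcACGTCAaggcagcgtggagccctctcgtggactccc
Gdnf: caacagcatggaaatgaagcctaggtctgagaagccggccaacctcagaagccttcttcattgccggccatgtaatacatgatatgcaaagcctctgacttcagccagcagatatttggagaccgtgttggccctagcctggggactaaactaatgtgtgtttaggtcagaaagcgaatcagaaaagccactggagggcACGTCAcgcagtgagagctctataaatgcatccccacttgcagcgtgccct
The core begins 36 bases before the RefSeq start in Bdnf and 51 bases before it in Gdnf. That RefSeq start of Gdnf lies upstream of the start of the counted gene, 7810846. A match is a description of the letters, not a measured binding site.

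Ntf3 encodes neurotrophin-3, which supports proprioceptive sensory neurons, and lies on the minus strand of chromosome 6 at 126101412 to 126166910. It had 9, 1 and 7 counts in trained replicates 1, 2 and 3, against 9, 5 and 4 counts in untrained replicates 1, 2 and 3. These correspond to 0.348, 0.0617 and 0.434 CPM in trained libraries, against 0.491, 0.300 and 0.255 CPM in untrained ones. The groups overlapped, and a difference was not detectable at this depth. Over the pooled counts the ratio of trained to untrained was 0.822, with an exact 95% interval of 0.398 to 1.69 that covers counting error only.

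Ntrk2 encodes TrkB, the receptor of BDNF, which neurons make in full length and astrocytes mostly in a truncated form. It lies on the plus strand of chromosome 13 at 58806569 to 59133970. Its CPM values were 403, 379.9 and 362 in trained replicates 1, 2 and 3, against 403, 396 and 379 in untrained replicates 1, 2 and 3. The highest trained and the highest untrained value were the same to 3 digits, and the lowest of all was that of trained replicate 3. Ntrk2 had a mean of 382 ± 20.7 CPM in the trained group and 392 ± 12.5 CPM in the untrained group, a log2 fold change of -0.04 ± 0.07 (SE) with an adjusted p of 0.897. Its 95% interval, -0.20 to 0.12, was about as narrow as that of Ntrk3 and the narrowest of the 5 genes tested. Without trained replicate 3 the value was 0.02.

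Ntrk3 encodes TrkC, the receptor of NT-3, and lies on the minus strand of chromosome 7 at 78175959 to 78738012. Its CPM values were 82.2, 73.1 and 81.2 in trained replicates 1, 2 and 3, against 92.7, 84.3 and 84.7 in untrained replicates 1, 2 and 3. Every trained library lay below every untrained one. Ntrk3 had a mean of 78.8 ± 4.995 CPM in the trained group and 87.2 ± 4.73 CPM in the untrained group, a log2 fold change of -0.15 ± 0.07 (SE) with a 95% interval of -0.31 to 0.02. The adjusted p was 0.536 and the unadjusted edgeR p 0.0735, so the difference did not pass the test. Without trained replicate 2 or untrained replicate 1 the log2 fold change was -0.09, in the same direction.

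Sort1 encodes sortilin, a sorting receptor of neurons and other cells that binds proneurotrophins and carries BDNF in the secretory pathway. It lies on the plus strand of chromosome 3 at 108284082 to 108361511. Its CPM values were 406, 358 and 341 in trained replicates 1, 2 and 3, against 386, 393 and 407 in untrained replicates 1, 2 and 3. Trained replicates 2 and 3 were the lowest of the 6 libraries, and trained replicate 1 lay just under the highest. Sort1 had a mean of 368 ± 33.5 CPM in the trained group and 395 ± 10.6 CPM in the untrained group, a log2 fold change of -0.10 ± 0.08 (SE) with a 95% interval of -0.28 to 0.07 and an adjusted p of 0.715. Leaving out trained replicate 3 gave -0.03 and leaving out trained replicate 1 gave -0.18. Trained replicate 3, lowest in Sort1, was also lowest in 5 of 8 neuronal markers. Their summed CPM was 6521 to 7940 in trained and 7233 to 8351 in untrained libraries, and 0 of the 8 passed the test. The red blood cell markers moved the other way, at 60.98, 144.4 and 143 summed CPM in trained replicates 1, 2 and 3, against 67.7, 64.9 and 36.6 in untrained replicates 1, 2 and 3. Of all marker lists examined, the red blood cell list had the lowest Pearson r with Sort1 over the 6 libraries (-0.929, log2 CPM). The contrast was not particular to it, with -0.841 for neutrophil markers and -0.73 for fibroblast and meningeal markers. Motor neuron markers (0.874) were closer to Sort1 than the neuronal ones (0.76) by this measure. The part of any of these lists in the Sort1 values was not tested. Of the 5 genes of the sortilin family, Sort1 among them, 0 passed the test. Sorl1 (SorLA) was at -0.12 ± 0.08 and Sorcs1 at 0.06 ± 0.10.

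Igf1 encodes insulin-like growth factor 1, known in injured cord from microglia and macrophages and in other tissues from fibroblasts, and lies on the plus strand of chromosome 10 at 87858265 to 87937042. Its CPM values were 17.2, 37.7 and 52.7 in trained replicates 1, 2 and 3, against 42.4, 30.6 and 31.97 in untrained replicates 1, 2 and 3. The lowest and the highest of the 6 libraries were both trained, and the untrained values lay between them. Igf1 had a mean of 35.9 ± 17.8 CPM in the trained group and 35.0 ± 6.42 CPM in the untrained group, a log2 fold change of 0.02 ± 0.47 (SE) with an adjusted p of 0.995. The coefficient of variation was 49.6% in trained and 18.4% in untrained libraries, where counting error alone gives 4.11% and 4.18%. The 95% interval, -1.25 to 1.29, was the widest of the 5 genes, so changes of either sign within these bounds were compatible with the data. Leaving out trained replicate 1 gave 0.37 and leaving out trained replicate 3 gave -0.36, neither past the test.

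Igf1 had its lowest and its highest library in common with the markers of fibroblasts and meninges and with those of phagocytic microglia. The summed CPM of these 8 markers was 132, 655 and 701 in trained replicates 1, 2 and 3, against 627, 379 and 362 in untrained replicates 1, 2 and 3. None of the 8 markers passed the test between the groups, and the one with the highest mean was Col1a2, a collagen chain gene. Phagocytic microglia markers summed to 7419, 7645 and 11526 CPM in trained replicates 1, 2 and 3, against 10577, 9083 and 9040 CPM in untrained replicates 1, 2 and 3. Apoe had the highest mean of these markers, 6981 CPM, and made up most of the sum. In both lists trained replicate 1 was lowest and trained replicate 3 highest, as in Igf1. Homeostatic microglia markers ranged from 580.4 to 721 in trained and from 678 to 800.4 in untrained libraries, and 0 of the 12 phagocytic and 0 of the 8 homeostatic markers passed the test. Relative to the 20 markers of both microglia lists, Igf1 had a log2 ratio of -8.17 ± 0.603 in trained and -8.21 ± 0.129 in untrained libraries (SD, n = 3 each). The difference of 0.05 had a two-sided exact permutation p of 1, where 3 against 3 libraries cannot give less than 0.1. Apoe also makes up most of this 20-marker sum, so the ratio is largely one of Igf1 to Apoe. With the homeostatic list alone the difference was 0.12 (exact permutation p = 0.9). Relative to the fibroblast and meningeal markers, a ratio added after the data were seen, the difference was 0.08 (exact permutation p = 0.9). Their part in the Igf1 values was not otherwise tested.

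The IGF system holds receptors, binding proteins and the proteases that cleave these. Of 21 genes listed, 19 were tested and 0 passed, with a median log2 fold change of 0.02. Igfbp6, a binding protein gene of mesenchymal cells, measured 3.48, 31.6 and 47.8 CPM in trained replicates 1, 2 and 3, against 26.3, 15.3 and 16.0 CPM in untrained replicates 1, 2 and 3. Igfbp2, another binding protein gene, was at 33.5, 90.4 and 124.7 CPM in the trained replicates, against 77.4, 59.6 and 59.2 CPM in the untrained ones. Both had trained replicate 1 lowest and trained replicate 3 highest, as Igf1 did (both were named after their values were seen). The receptor gene Igf1r was at 59.9, 62.7 and 55.9 CPM in trained libraries, against 63.8, 66.2 and 62.8 CPM in untrained ones, a log2 fold change of -0.11 ± 0.07 that did not pass the test (adjusted p = 0.638). Insr, the insulin receptor gene, was at -0.20 ± 0.08 and Pappa, a protease gene that cleaves IGF binding proteins, at -0.44 ± 0.17, the 2 smallest p of the list (adjusted p = 0.396 and 0.421).

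**Figure D3:**
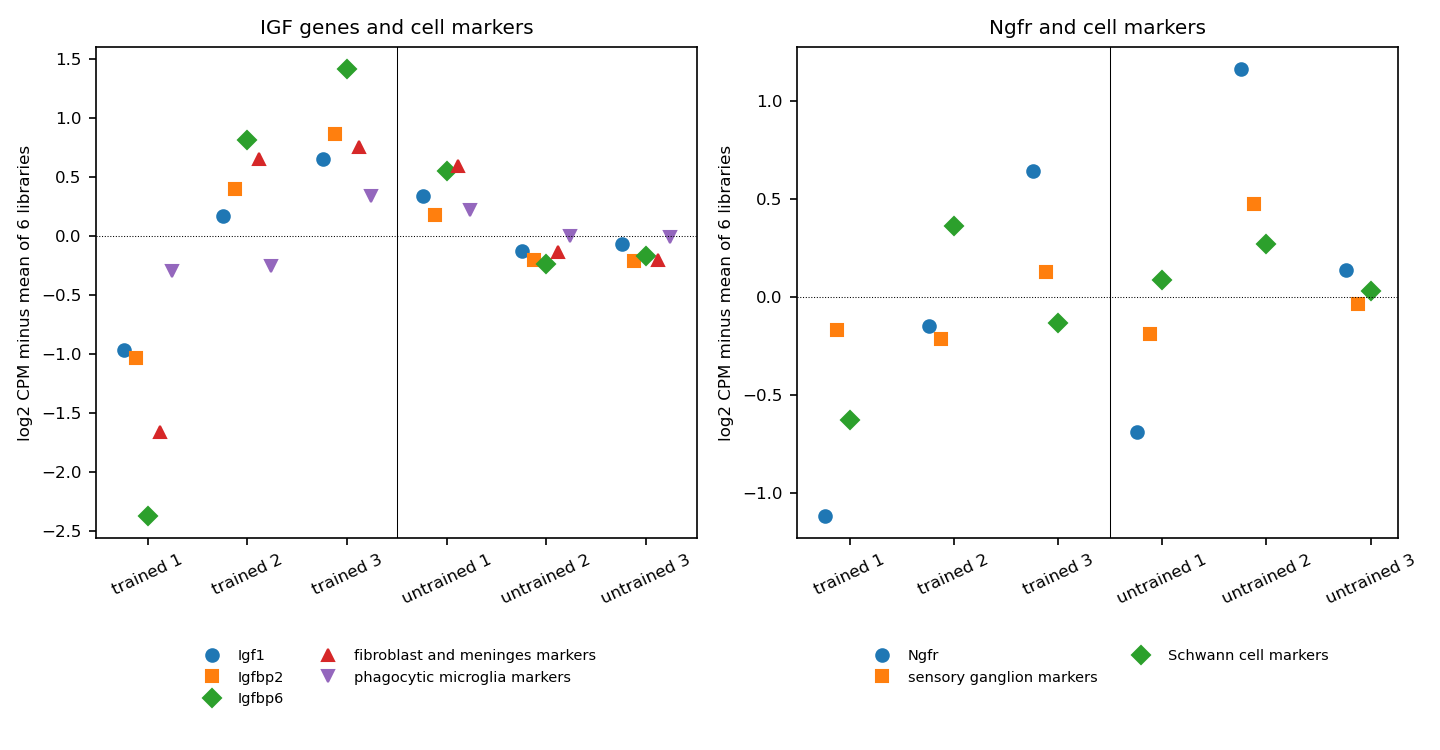
Left, Igf1, Igfbp2, Igfbp6 and the summed markers of fibroblasts and meninges and of phagocytic microglia. Right, Ngfr and the summed markers of sensory ganglion neurons and Schwann cells, each as log2 CPM minus its mean over the 6 libraries. Trained replicate 1 is the lowest library for all 3 IGF genes and the fibroblast markers, and untrained replicate 2 the highest for Ngfr and the sensory ganglion markers.

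Cntf encodes ciliary neurotrophic factor, a cytokine stored in Schwann cells and astrocytes. It lies on the minus strand of chromosome 19 at 12763660 to 12765632. It had 2, 0 and 0 counts in trained replicates 1, 2 and 3, against 3, 3 and 2 counts in untrained replicates 1, 2 and 3. In CPM these were 0.0773, 0 and 0 in trained libraries, against 0.164, 0.180 and 0.128 in untrained ones, and a count of 0 allows up to 0.185 and 0.186 CPM in trained replicates 2 and 3. The pooled ratio of trained to untrained was 0.218, with an exact 95% interval of 0.0225 to 1.09 for counting error only. The groups did not overlap, at 8 counts or fewer per group, and all 6 values lie at or below the floor of 3 counts.

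The annotation limits what a Cntf count can show. Of its 1073 exon bases, 847 (78.9%) are also exon bases of Zfp91 on the same strand, a gene with an annotated transcript that runs on through Cntf. All 594 coding bases annotated for Cntf are among these. Zfp91, a zinc-finger gene, measured 196, 206 and 186 CPM in trained replicates 1, 2 and 3, against 195, 221 and 215 CPM in untrained replicates 1, 2 and 3 (adjusted p = 0.697). How reads that fall on both genes were counted is not given in the sources used here, so the low count is not a measure of the Cntf transcript. The coding part of the first coding exon is shown as an example, since each of its 114 bases lies in exons of both genes (chr19:12765281-12765394, GRCm38, minus strand, from the GENCODE M21 transcript, with the start codon in capitals).
Cntf: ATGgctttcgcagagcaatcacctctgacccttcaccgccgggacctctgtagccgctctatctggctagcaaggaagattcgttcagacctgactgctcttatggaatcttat

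The receptor side of CNTF was well measured. Of 19 genes listed for CNTF and the related gp130 cytokines, 17 were tested and 0 passed, with 7 lower and 0 higher at an unadjusted p below 0.05, against 5.55% lower and 4.47% higher over all genes, and a median log2 fold change of -0.14. Lifr, the LIF receptor gene that CNTF also uses, measured 71.7, 73.6 and 69.0 CPM in trained replicates 1, 2 and 3, against 84.6, 89.8 and 86.4 CPM in untrained replicates 1, 2 and 3. All trained libraries lay below all untrained ones, with a log2 fold change of -0.28 ± 0.07 and an adjusted p of 0.210. Jak2, a kinase gene of these receptors listed beside Jak1 and Tyk2, was at 41.2, 43.0 and 40.8 CPM in trained libraries, against 53.3, 56.0 and 45.9 CPM in untrained ones (log2 fold change -0.31 ± 0.09, adjusted p = 0.268). Cntfr, the gene of the CNTF-specific receptor chain, had the opposite sign at 108, 105 and 113 CPM in trained libraries, against 94.5, 97.6 and 104 CPM in untrained ones (0.14 ± 0.07, adjusted p = 0.520). Reactive astrocytes are known to use this pathway. Of their 8 markers 7 had a negative log2 fold change, against 8786 of 16909 over all genes tested, and 0 passed. Stat3 and Osmr are among these markers and also in the CNTF list, so the lists share genes. The summed CPM of the 8 markers was 4596 to 6596 in trained and 5387 to 6012 in untrained libraries. Gfap, with a mean of 4535 CPM, made up most of that sum, and trained replicate 3 had the highest sum. The part of these markers in the values of the CNTF list was not tested.

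Gdnf encodes glial cell line-derived neurotrophic factor and lies on the plus strand of chromosome 15 at 7810846 to 7837575. It had 11, 9 and 6 counts in trained replicates 1, 2 and 3, against 9, 8 and 10 counts in untrained replicates 1, 2 and 3. In CPM these were 0.425, 0.555 and 0.372 in trained libraries, against 0.491, 0.480 and 0.638 in untrained ones. The groups overlapped, and the pooled ratio was 0.838 with an exact 95% interval of 0.470 to 1.49 for counting error only. Of the 11 genes of the GDNF family 8 were tested and 0 passed. Nrtn, the gene of the related ligand neurturin, measured 9.20, 8.57 and 8.43 CPM in trained replicates 1, 2 and 3, against 6.43, 6.00 and 6.44 CPM in untrained replicates 1, 2 and 3. Gfra4, a co-receptor gene, was at 35.6, 32.2 and 32.5 CPM in trained libraries, against 29.1, 23.2 and 27.9 CPM in untrained ones. In both, every trained library lay above every untrained one, with log2 fold changes of 0.47 ± 0.15 and 0.33 ± 0.10 and adjusted p of 0.323 and 0.321. Ret, the shared signalling receptor gene, and Gfra1, the co-receptor gene of GDNF, had the opposite sign. Ret was at 138, 141 and 128.9 CPM in trained libraries, against 145, 142 and 155 CPM in untrained ones (-0.11 ± 0.07), and Gfra1 at 79.6, 80.5 and 67.1 CPM in trained libraries, against 85.0, 86.6 and 87.6 CPM in untrained ones (-0.19 ± 0.08), neither past the test. Ret is also listed as a motor neuron marker. Of those 7 markers 7 were negative (median -0.205), against 8786 of 16909 over all genes tested, and 0 passed. Their part in the Ret and Gfra1 values was not tested. The 5 genes of the family without overlap between groups split into 3 higher and 2 lower, against 8.11% higher and 8.69% lower over all genes. The family's median log2 fold change was 0.22, and 0.07 with the filter of 1 CPM in 3 libraries.

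Ngfr, the gene of the p75 receptor shared by the neurotrophins, measured 4.10, 8.02 and 13.9 CPM in trained replicates 1, 2 and 3, against 5.51, 19.9 and 9.76 CPM in untrained replicates 1, 2 and 3. The groups overlapped, with the lowest value in trained replicate 1 and the highest in untrained replicate 2 (log2 fold change -0.45 ± 0.70, adjusted p = 0.881). Without untrained replicate 2 the Ngfr value was 0.17 and without trained replicate 3 it was -0.96. The p75 receptor is known from sensory neurons and from Schwann cells. Untrained replicate 2 was highest in 7 of 8 sensory ganglion markers, whose summed CPM was 142 to 179.99 in trained and 145 to 228 in untrained libraries. The Schwann cell markers ranged from 1153 to 2285 summed CPM in trained and from 1818 to 2148 in untrained libraries, and 0 of 8 and 0 of 7 tested passed. Mal had the highest mean of the Schwann cell markers, 783.5 CPM. It made up a large part of their sum, and whether its RNA came from Schwann cells was not tested. Prph, also listed as a motor neuron marker, had the highest mean of the sensory ganglion markers, 89.5 CPM. The mean log2 CPM of the Schwann cell markers, centred over the libraries, was -2.4 in trained replicate 1 and 0.171 to 0.765 in the others. The part of either list in the Ngfr values was not tested.

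Genes around the neurotrophins were examined by role, from lists chosen with earlier results of these data known. Over all lists 157 genes were in the table and 147 were tested. Of these 1 passed the test, Arc, and 30 (20.4%) had an unadjusted p below 0.05, 8 higher and 22 lower, against 10.0% of all genes. Among the 14 tested genes that cleave or regulate proneurotrophins 0 passed, with a median log2 fold change of -0.06. Furin, the convertase that cuts proneurotrophins inside cells, measured 36.4, 39.4 and 41.0 CPM in trained replicates 1, 2 and 3, against 43.4, 37.2 and 39.6 CPM in untrained replicates 1, 2 and 3. The convertase genes Pcsk6 and Pcsk1 had the smallest p of that list, at 0.24 ± 0.11 and 0.22 ± 0.10 (adjusted p = 0.471 and 0.497).

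Trk receptors signal through adaptors to the Ras-MAP kinase, PI3 kinase and phospholipase C pathways. Of 42 such genes tested 0 passed, 0 were higher and 5 lower at an unadjusted p below 0.05, against 4.47% and 5.55% over all genes. A negative log2 fold change was found in 30 of 42, and the median was -0.08, or -0.02 without trained replicate 3. The groups did not overlap in 12 of the 42, 10 of them lower, against 16.8% of all genes. Rps6ka3, the gene of a kinase downstream of ERK, measured 29.7, 35.8 and 34.8 CPM in trained replicates 1, 2 and 3, against 40.7, 40.8 and 38.5 CPM in untrained replicates 1, 2 and 3 (log2 fold change -0.26 ± 0.09, adjusted p = 0.363). Gab2, an adaptor gene of the PI3 kinase branch, was at 65.0, 60.7 and 60.4 CPM in trained libraries, against 70.4, 70.5 and 72.4 CPM in untrained ones (-0.20 ± 0.07, adjusted p = 0.373). In both genes every trained library lay below every untrained one. Among 12 tested partners of p75, 0 passed, with a median log2 fold change of -0.00, and Lingo1, a co-receptor gene in the p75 and Nogo receptor complex, was at 73.7, 68.3 and 63.3 CPM in trained libraries, against 61.7, 56.0 and 59.2 CPM in untrained ones (0.22 ± 0.08, adjusted p = 0.380).

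Of the 17 regulators of the Bdnf promoters 0 passed, with a median log2 fold change of -0.02. Creb1, the gene of the factor that binds the CRE, measured 39.9, 41.1 and 38.6 CPM in trained replicates 1, 2 and 3, against 46.0, 47.4 and 42.8 CPM in untrained replicates 1, 2 and 3, so that the groups did not overlap (-0.19 ± 0.08, adjusted p = 0.446). Npas4, an activity-dependent factor gene, was at 2.48, 1.54 and 2.91 CPM in trained libraries, against 1.69, 0.780 and 1.15 CPM in untrained ones (0.93 ± 0.35, adjusted p = 0.409). Bdnf itself overlapped between the groups, as given above. Of 14 genes that Trk signalling is known to induce, Arc, a gene of the postsynapse, rose and 13 did not pass in edgeR's test, and the list's median log2 fold change was -0.14. Arc measured 37.5, 39.2 and 33.4 CPM in trained replicates, against 19.6, 23.2 and 22.4 CPM in untrained ones (0.76 ± 0.10, edgeR adjusted p = 0.00968), and its call was lost without trained replicate 2 (adjusted p = 0.119) and with the replicate block (adjusted p = 0.0635). Dusp6, the gene of an ERK phosphatase, had the opposite sign at 18.2, 27.9 and 25.8 CPM in trained libraries, against 44.3, 36.8 and 39.7 CPM in untrained ones (-0.76 ± 0.15, adjusted p = 0.192), and was named after its values were seen. It was called by DESeq2 and by edgeR with no filter on low counts.

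**Figure D4:**
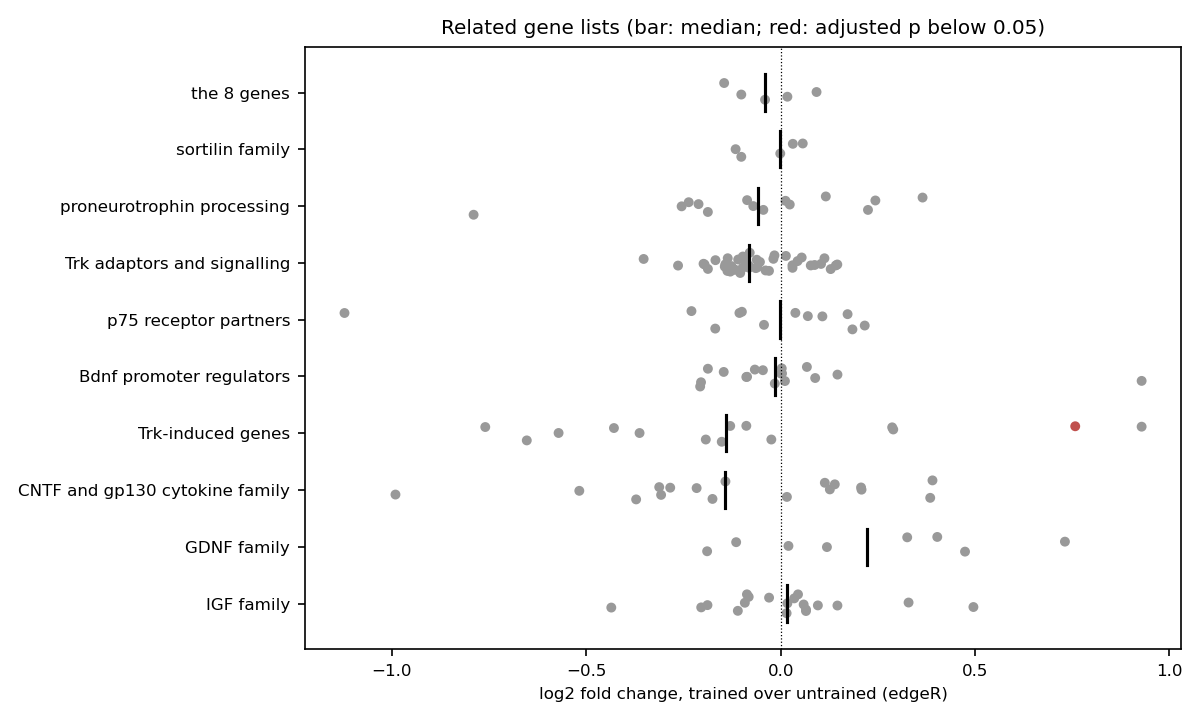
Log2 fold change, trained over untrained, of each tested gene in the 8-gene group and in 9 related lists, with the list median as a bar. Arc, at 0.76, is the one gene past an adjusted p of 0.05, and the medians of the lists drawn lie between -0.14 and 0.22. Of the 10 lists, that of the other neurotrophin ligands and receptors (3 genes tested, 0 passed, 3 negative) is not drawn and had a median of -0.45.

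The genes whose level over the 6 libraries was most like that of each member are given as a description, since 6 points are few against the 16909 genes searched. For Bdnf these were the lincRNA Gm11681 and Nol8 (Pearson r of log2 CPM 0.993 and 0.986), with 19 genes above 0.95. For Ntrk2 they were Klc3 and C5ar2 (0.988 and 0.979), and for Ntrk3 R3hdm1 and Kcnmb1 (0.998 and 0.994). For Sort1 they were Vwa7 and A230056P14Rik (0.996 and 0.993), with 58 genes above 0.95. For Igf1 they were Islr and Trabd2b, both at 0.995, and 128 genes lay above 0.95, the most of the 5.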

How the data were processed

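Per the labels' protocols, total RNA of 6 spinal cord libraries was read on a NovaSeq in pairs of 150 bp. The authors' deposited table holds raw counts for each Ensembl gene beside its symbol, coordinates and exon length. The submitters' processing notes name Bowtie 0.12.2, mm8 and mm9 without saying what each was used for. The sources used here name no counter or annotation release and do not say whether strand was used. Of the table's gene IDs, 54409 of 54532 were found in GENCODE M21 (GRCm38), 98.3% of these with the same coordinates, including all 8 genes described.

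Counts were tested on the whole table with edgeR 4.0.16 in R 4.3.3 (TMM, filterByExpr, robust quasi-likelihood fit, 1 term for group) on the 16909 genes kept, with Benjamini-Hochberg adjustment over all of them and a threshold of 0.05. Each SE was taken as the absolute log2 fold change over the root of the F statistic. Log2 CPM for pattern likeness used a prior count of 2. Intervals from counts are exact at 95% and, like the floor of 3 counts, cover counting error only.

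The genes, lists and tests were chosen with earlier results of these data known. Beyond the 8 genes, the text names the genes past the test in each list or the 2 of smallest p, the 2 genes nearest in pattern to each, and, with their values already known, Furin, Cntfr, Ret, Gfra1, Igf1r, Igfbp2, Igfbp6 and Dusp6. Alternatives were RLE, upper-quartile and library-size scaling, DESeq2 1.42.0, limma-voom (limma 3.58.1), no low-count filter, a filter of 1 CPM in 3 libraries, the replicate number as a block, and dropping each library in turn. No 2 libraries agreed within sampling noise. Some genes of the related lists are not reported here.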

Additional observations from a re-analysis of the deposited data

How the results depend on the processing

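None of the genes passed the test in any of the 14 alternatives, which tested 5 of the 8 in each but DESeq2 and the fit with no low-count filter, where all 8 were tested. Their median log2 fold change of -0.04 lay at -0.12 in DESeq2 and at -0.11 in limma-voom and with no low-count filter. In DESeq2 and with no low-count filter it is the median of all 8 genes, and otherwise of 5. In DESeq2 Bdnf, Ntrk2, Ntrk3, Sort1 and Igf1 were at 0.0948, -0.0373, -0.143, -0.098 and 0.0326. The count over all genes was 10, against 86 in DESeq2, 276 with no low-count filter, 5 with the replicate block and 4 to 221 on leaving out 1 library (21 without trained replicate 1, 4 without trained replicate 2 and 221 without trained replicate 3). The count over the related lists was 1, against 2, 7, 0 and 0 to 3 under the same settings (0 without trained replicate 2, 3 without trained replicate 3). For Igf1 the log2 fold change was 0.02, but -0.19 in limma-voom and -0.0807 with the replicate block, and it ranged from -0.36 to 0.37 on leaving out 1 library. Leaving out 1 library gave -0.0521 to 0.217 for Bdnf, -0.0821 to 0.0163 for Ntrk2, -0.96 to 0.17 for Ngfr and -0.0255 to 0.161 for Sorcs1, and -0.147 to 0.395 for the log2 ratio of Igf1 to microglial markers. Apart from the wider gene set behind some of the medians, the cause of these shifts was not tested. The trained and untrained libraries that share a replicate number did not vary together (correlation of their deviations -0.18, -0.09 and -0.13). The labels state no pairing, and these correlations cannot show whether libraries were handled in pairs. The call of Arc was lost with the replicate block (adjusted p = 0.0635). Depth limits Ntf3, Gdnf and Cntf, with 1 to 11, 6 to 11 and 0 to 3 counts per library.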
